A study of Mus musculus with 6 samples.

Results

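Genes whose products copy DNA in S phase or drive mitosis were examined in EGFP+ and EGFP- cells of the inflamed mouse colon. The members were listed by their known function, 19 acting in S phase and 21 in mitosis, and 38 of these 40 genes were analysed, out of 20327 gene symbols with at least 1 tag in the series. The remaining 2 of the 40 were not analysed here. All cells came from C57BL/6 mice that carry the *Il11-Egfp* reporter, a bacterial artificial chromosome in which EGFP is made under the control of *Il11*. The mice were 9 to 15 weeks old, drank 1.5% dextran sulfate sodium (DSS) for 5 days and were used on day 7. From the colon, DAPI-negative cells without surface Ter119, CD45, CD31 or EpCAM were sorted into an EGFP+ and an EGFP- group (n = 3 libraries per group). The reporter marks cells in which *Il11* is active, so the EGFP- group is the rest of the same stromal gate and not a defined cell type. RNA was read by 5′Tag-seq, in which tags from the 5′ side of polyadenylated transcripts are counted per gene.

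S phase begins at origins that were licensed beforehand, when Cdc6 and Cdt1 load the Mcm helicase onto DNA, and it depends on a supply of deoxynucleotides and on the sliding clamp Pcna at the replication fork. Mitosis is driven by cyclin B with Cdk1 and by the Plk and Aurora kinases, and ends when the anaphase-promoting complex marks securin and cyclin B for destruction. Transcripts of both groups of genes are scarce in resting cells and rise in cycling ones, which is why they are widely read as a proliferation signature. Fibroblasts of the healthy gut divide rarely.

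The tags summed to 1057170, 1078179 and 1169817 in EGFP- replicates 1, 2 and 3 and to 1046538, 1022851 and 1049048 in EGFP+ replicates 1, 2 and 3. The floor of detection was set at 3 tags, which is 2.56 to 2.93 CPM (counts scaled to the library total). *Il11* itself had 28, 51 and 89 tags in EGFP- and 1357, 732 and 2658 tags in EGFP+ libraries. The groups did not overlap for the gene that drives the reporter, in the direction of the sort. Intervals and floors given here cover counting error only and treat each tag as independent. Amplified tags are not independent molecules, so the intervals may be too narrow.

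Proliferation transcripts were rare in both groups, and no member was called higher in EGFP+ cells. Only 9 members were tested, and 3.44% of all tested genes were called higher, so that 0 of 9 does not set the members apart. The 38 members together held 406, 392 and 454 tags in EGFP- replicates 1, 2 and 3 and 321, 344 and 340 tags in EGFP+ replicates 1, 2 and 3. This is 0.0379% of all tags in EGFP- and 0.0322% in EGFP+ libraries. Only *Rrm1*, the large subunit of ribonucleotide reductase, was called lower. Over all tested genes 6.37% were called lower, so that 1 of 9 does not set the members apart either. The mitosis members were close to the limit of detection in every library, and none of them had more than 8 tags in any library.

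Genes entered the comparison when 3 or more of the 6 libraries held 10 or more tags of them, and a gene was called when the edgeR quasi-likelihood test under Benjamini-Hochberg adjustment gave an adjusted p under 0.05 and the groups differed more than 2-fold. The filter kept 9334 genes, or 45.9% of the symbols, and 9 of the 38 members, or 23.7%. All 9 tested members act in S phase. The 29 untested members, 10 of S phase and 19 of mitosis, had at most 8 tags in every library, and 22 of the 38 members had 0 tags in at least 1 library. Among the 9 tested members, 0 were called higher and 1 was called lower, while 3.44% of all tested genes were called higher and 6.37% lower. At an unadjusted p under 0.05 the same test held 2 members, *Rrm1* and *Mcm6*, and both had lower values in EGFP+ cells. The number at that p was 4 with the replicate block, 3 with library-size scaling and 1 to 3 with single libraries left out. With the filter removed it was 4 of 38, with *Rrm1* and *Mcm6* lower and *Cdt1* and *Cenpf* higher in EGFP+ cells. DESeq2 called 0 members in either direction, with 1 at an unadjusted p under 0.05. The share of all tested genes at that p was not counted here, so the numbers at that p are not a result about the members. The median log2 fold change (EGFP+ over EGFP-) was -0.29 over the tested members, with a range of -1.31 to 0.95, beside a median of -0.01 for the whole of the tested genes. For 2 tested members the groups did not overlap, namely *Rrm1* and *Pcna*, both lower in EGFP+ cells, while 16.7% of all tested genes were lower and 14.5% higher without overlap, so that 2 of 9 is close to the background and is not a result about the members. With the filter removed, all 38 members entered the test and again 0 were called higher and only *Rrm1* lower, beside 2.1% of all 20327 genes called higher and 3.77% lower in that fit.

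Scaled to normalized CPM, in which library sizes are corrected for composition by the TMM method, the members summed to 377 ± 9.74 in EGFP- and 338 ± 12.7 in EGFP+ libraries (SD, n = 3), a ratio of 0.897. The S-phase members summed to 372, 349 and 430 tags in EGFP- and 285, 314 and 303 tags in EGFP+ libraries. Their normalized sums were 346 ± 14.7 and 303 ± 14.96 CPM (SD, n = 3), a ratio of 0.877, and the 3 EGFP- sums were above the 3 EGFP+ sums. *Pcna* alone gave 47.0% of all member tags, and without it the ratio was 0.975 for the S-phase members and 0.999 for all members. Without *Pcna* the sums of the groups were thus close. No other S-phase member was left out in this way. In the S-phase sums, the EGFP- and EGFP+ means were 187 and 148 for *Pcna* and 24.2 and 9.79 for *Rrm1*. Of the tested members, *Tyms* (41.3 and 47.0), *Cdt1* (6.48 and 12.4) and *Lig1* (8.03 and 13.0) went the other way. The mitosis members summed to 34, 43 and 24 tags in EGFP- and 36, 30 and 37 tags in EGFP+ libraries. The sums overlapped, at 30.9 ± 10.5 and 34.6 ± 3.89 normalized CPM (SD, n = 3), and the group totals of 101 and 103 tags give a ratio of 1.14 after scaling with a 95% counting interval (exact Clopper-Pearson) of 0.858 to 1.51. The same interval was 0.802 to 0.956 for the S-phase members and 0.825 to 0.975 for all members, with *Pcna* included and without the spread between libraries. The ratio of the mean mitosis sums was 1.12, with 0.949 without EGFP- replicate 3, 1.33 without EGFP- replicate 2 and 0.979 without *Cenpf*, the member of this group with the most tags. These ranges leave a difference of the mitosis sum in either direction open. No test was made of the sums. In sorted cells, fewer cells of a type and less RNA per cell cannot be told apart.

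**Figure D1:**
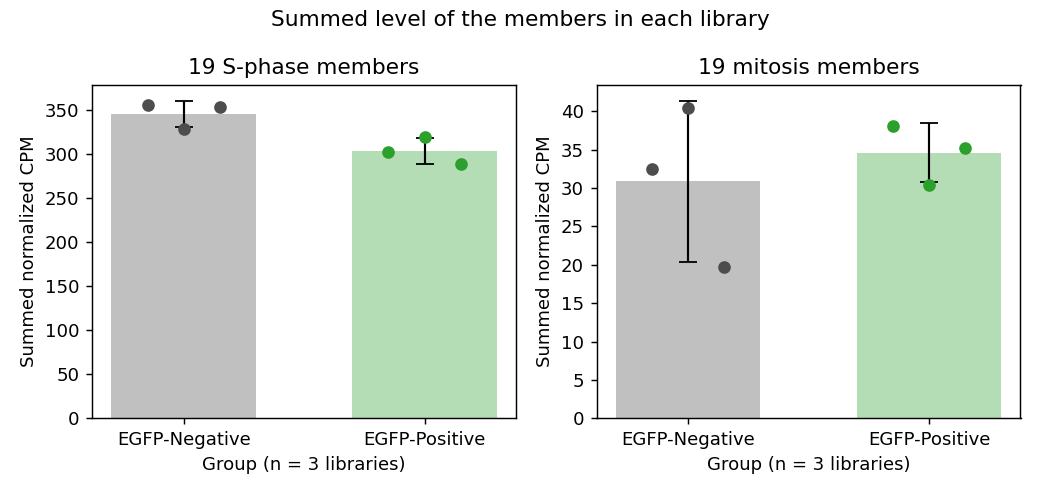
Summed normalized CPM of the 19 S-phase members (left) and of the 19 mitosis members (right) in EGFP- (grey) and EGFP+ (green) libraries. Points are libraries, bars are group means and error bars are SD (n = 3); the S-phase sums do not overlap (346 against 303), while the mitosis sums do (30.9 against 34.6) and the scales of the panels differ.

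*Rrm1* encodes the subunit of ribonucleotide reductase that holds the catalytic site, and the enzyme makes deoxynucleotides for DNA synthesis and repair. The gene lies at chr7:102441695-102469771 on the plus strand in GRCm38. It had 13, 28 and 41 tags in EGFP- replicates 1, 2 and 3 and 11, 9 and 9 tags in EGFP+ replicates 1, 2 and 3. The EGFP+ libraries were close together and all lay below the EGFP- libraries, of which replicate 1 came near them and replicate 3 was the highest. This is 24.2 ± 10.8 against 9.79 ± 1.64 normalized CPM (SD, n = 3). *Rrm1* thus had a log2 fold change of -1.31 (SE 0.389), and the edgeR quasi-likelihood test under Benjamini-Hochberg adjustment gave an adjusted p of 0.0267. The call depended on single libraries. By the edgeR quasi-likelihood test under Benjamini-Hochberg adjustment it was lost without EGFP- replicate 2 (log2 fold change -1.24, adjusted p = 0.094), EGFP- replicate 3 (-0.98, adjusted p = 0.154), EGFP+ replicate 2 (-1.26, adjusted p = 0.0913) or EGFP+ replicate 3 (-1.22, adjusted p = 0.0751), and it held without EGFP- replicate 1 (-1.62, adjusted p = 0.00568) or EGFP+ replicate 1 (-1.44, adjusted p = 0.0464). DESeq2 gave -1.30 with an adjusted p of 0.0634. No 50-nt window in the 5′ part of the *Rrm1* transcripts occurs in another annotated gene. The small subunit, *Rrm2*, whose level limits the enzyme in cycling cells, had 4, 1 and 0 tags in EGFP- and 1, 1 and 0 tags in EGFP+ libraries. These values are too low to be set beside those of the large subunit.

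Of the other members that supply nucleotides only *Tyms* was tested, and it was not called. *Tyms*, which makes thymidylate, had 42, 48 and 47 tags in EGFP- and 39, 52 and 49 tags in EGFP+ libraries. The groups overlapped, and the log2 fold change was 0.19 (SE 0.219). The pseudogene *Tyms-ps* holds 11.6% of the 50-nt windows at the 5′ side of *Tyms* transcripts and had at most 1 tag in any library. *Tk1*, the salvage kinase for thymidine, had 1, 1 and 2 tags in EGFP- and 3, 3 and 3 tags in EGFP+ libraries. All of these values lie at or under the floor.

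The licensing factors and the Mcm helicase gave values in both directions. *Cdt1*, which brings the helicase to origins, had 12, 5 and 4 tags in EGFP- and 11, 11 and 15 tags in EGFP+ libraries. EGFP- replicate 1 lay among the EGFP+ libraries, and the log2 fold change of 0.95 (SE 0.468) had an adjusted p of 0.204 by the edgeR quasi-likelihood test under Benjamini-Hochberg adjustment. Without that library the value was 1.62 (adjusted p = 0.0619 by the edgeR quasi-likelihood test under Benjamini-Hochberg adjustment), and without EGFP- replicate 3 it was 0.61. The partner of Cdt1 in loading, *Cdc6*, had 0, 3 and 1 tags in EGFP- and 2, 1 and 1 tags in EGFP+ libraries, so no fold is given.

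Mcm2 to Mcm7 form the ring-shaped helicase in equal numbers, one gene for each subunit. *Mcm6* had 9, 14 and 34 tags in EGFP- and 7, 5 and 11 tags in EGFP+ libraries. EGFP- replicate 3 stood well above the other libraries, and the groups overlapped at their edge. The log2 fold change of *Mcm6* was -1.12 (SE 0.467, adjusted p = 0.124 by the edgeR quasi-likelihood test under Benjamini-Hochberg adjustment), and without EGFP- replicate 3 it was -0.49 (adjusted p = 0.595 by the edgeR quasi-likelihood test under Benjamini-Hochberg adjustment). *Mcm4* had 24, 20 and 20 tags in EGFP- and 8, 23 and 16 tags in EGFP+ libraries. EGFP+ replicate 2 was as high as the EGFP- libraries, and the log2 fold change was -0.29 (SE 0.358) with all libraries and 0.0022 without EGFP+ replicate 1. *Mcm3* had 5, 14 and 12 tags in EGFP- and 4, 12 and 5 tags in EGFP+ libraries. Each group held both high and low libraries (log2 fold change -0.39, SE 0.509), and the value ranged from -1.02 without EGFP+ replicate 2 to -0.07 without EGFP- replicate 2. *Mcm7* had 19, 14 and 11 tags in EGFP- and 13, 15 and 9 tags in EGFP+ libraries. The groups overlapped almost fully (-0.09, SE 0.391), and the sign turned to 0.18 without EGFP- replicate 1 and to 0.12 without EGFP+ replicate 3. Of its 50-nt windows at the 5′ side, 14.2% occur in other annotated genes. The adjusted p of *Mcm3*, *Mcm4* and *Mcm7* was 0.686, 0.663 and 0.914 by the edgeR quasi-likelihood test under Benjamini-Hochberg adjustment.

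The remaining helicase genes were not tested. *Mcm2* had 3, 1 and 2 tags in EGFP- and 5, 5 and 5 tags in EGFP+ libraries. Every EGFP+ library was above every EGFP- library, at a ratio of 2.79 with a 95% counting interval of 1.02 to 8.79, opposite in direction to the value of *Mcm6*. *Mcm5* had 3, 5 and 5 tags in EGFP- and 1, 4 and 3 tags in EGFP+ libraries. *Gins2*, a subunit of the complex that activates the helicase, had 2, 0 and 4 tags in EGFP- and 6, 0 and 5 tags in EGFP+ libraries. Both genes overlapped between the groups. Of the 6 Mcm subunits, 5 had the lower mean in EGFP+ cells and *Mcm2*, at few tags, the higher, and none of them was called.

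At the fork, *Pcna* encodes the clamp that holds DNA polymerases on their template and also serves DNA repair in cells that do not divide. It lies at chr2:132249162-132253314 on the minus strand in GRCm38. *Pcna* had 222, 173 and 225 tags in EGFP- and 142, 144 and 155 tags in EGFP+ libraries. The groups did not overlap, and the EGFP+ libraries were nearly equal. The means were 187 ± 24.5 and 148 ± 2.17 normalized CPM (SD, n = 3). With a log2 fold change of -0.33 (SE 0.164), *Pcna* did not pass the test (adjusted p = 0.207 by the edgeR quasi-likelihood test under Benjamini-Hochberg adjustment). The pseudogene *Pcna-ps2* holds 12.2% of the 50-nt windows at its 5′ side. *Lig1*, the ligase that joins Okazaki fragments, had 8, 7 and 12 tags in EGFP- and 16, 19 and 3 tags in EGFP+ libraries. EGFP+ replicate 3 was the lowest and the other EGFP+ libraries the highest, so the log2 fold change of 0.66 (SE 0.515) moved to 1.15 without that library and to 0.26 without EGFP+ replicate 2, and had an adjusted p of 0.46 with it by the edgeR quasi-likelihood test under Benjamini-Hochberg adjustment.

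*Fen1*, the nuclease that trims Okazaki fragments, had 3, 7 and 5 tags in EGFP- and 7, 5 and 4 tags in EGFP+ libraries. *Uhrf1*, which carries DNA methylation over to the new strand, had 0, 4 and 2 tags in EGFP- and 1, 4 and 7 tags in EGFP+ libraries. For neither gene were the groups apart. The E-type cyclins, which start S phase with Cdk2, were also near the floor. *Ccne1* had 1, 0 and 1 tags in EGFP- and 2, 1 and 1 tags in EGFP+ libraries. *Ccne2* had 1, 4 and 2 tags in EGFP- and 6, 0 and 2 tags in EGFP+ libraries. Single tags decide the order of such values.

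**Figure D2:**
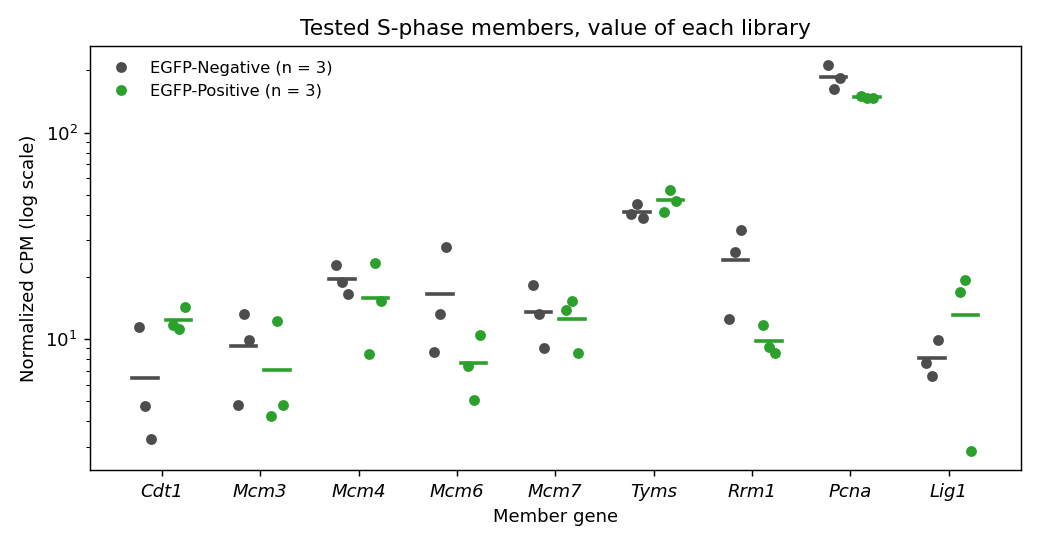
Normalized CPM (log scale) of the 9 tested members in each EGFP- (grey) and EGFP+ (green) library, with a line at the group mean (n = 3). The groups are apart for *Rrm1* (24.2 against 9.79) and *Pcna* (187 against 148) and overlap for the other 7 genes.

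None of the mitosis members passed the filter. Their tags are described here and no fold is given where both groups were at or under the floor of 3 tags. Cyclins A and B with Cdk1 form the kinase that opens mitosis. *Cdk1* had 2, 1 and 1 tags in EGFP- and 0, 0 and 1 tags in EGFP+ libraries. *Ccnb1* had 1, 1 and 1 tags in EGFP- and 0, 2 and 0 tags in EGFP+ libraries. *Ccnb2* had 5, 2 and 2 tags in EGFP- and 1, 0 and 2 tags in EGFP+ libraries. These 3 genes had fewer tags in EGFP+ cells, but each counting interval included a ratio of 1. *Ccna2*, which acts in both S phase and mitosis, had 2, 0 and 0 tags in EGFP- and 1, 1 and 1 tags in EGFP+ libraries. For *Ccnb1*, 46.5% of the 50-nt windows at the 5′ side are shared with pseudogenes or other loci.

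*Plk1*, a kinase of centrosome maturation and cytokinesis, had 1, 2 and 2 tags in EGFP- and 0, 0 and 0 tags in EGFP+ libraries. Even so the EGFP- values lie under the floor, and an absence in EGFP+ cells cannot be read from them. *Aurka*, the centrosomal Aurora kinase, had 0, 0 and 1 tags in EGFP- and 2, 1 and 1 tags in EGFP+ libraries. *Bub1b*, of the spindle checkpoint, had 4, 7 and 2 tags in EGFP- and 1, 3 and 0 tags in EGFP+ libraries, a ratio of 0.344 with a 95% counting interval of 0.0817 to 1.11. The groups overlapped and the interval includes a ratio of 1. *Birc5*, the survivin of the chromosomal passenger complex, had 2, 6 and 2 tags in EGFP- and 2, 1 and 5 tags in EGFP+ libraries. Of the partners of the anaphase-promoting complex, the activator *Cdc20* had 0, 1 and 0 tags in EGFP- and 2, 2 and 1 tags in EGFP+ libraries, with 15.3% of its 5′ windows shared with other loci. The conjugating enzyme *Ube2c* had 2, 4 and 2 tags in EGFP- and 1, 3 and 0 tags in EGFP+ libraries.

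Among centromere and spindle genes, *Cenpf*, a kinetochore protein that builds up late in the cell cycle, had 0, 3 and 4 tags in EGFP- and 7, 4 and 8 tags in EGFP+ libraries. In tags the groups met at 4, and in normalized CPM the EGFP+ libraries were all above, with 2.04 ± 1.78 against 6.37 ± 2.00 (SD, n = 3). The ratio was 3.03 with a 95% counting interval of 1.22 to 8.54. With the filter removed its adjusted p was 0.209 by the edgeR quasi-likelihood test under Benjamini-Hochberg adjustment, which is the lowest of the 29 untested members. *Prc1*, which bundles the central spindle, had 1, 1 and 1 tags in EGFP- and 4, 0 and 3 tags in EGFP+ libraries. The other genes of this role are the histone *Cenpa*, the motors *Cenpe*, *Kif11* and *Kif23* and the spindle assembly factor *Tpx2*, and they had between 0 and 4 tags in every library of either group.

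*Mki67*, which encodes the Ki67 antigen that coats mitotic chromosomes, had 0, 3 and 1 tags in EGFP- and 5, 2 and 5 tags in EGFP+ libraries. EGFP- replicate 2 was above EGFP+ replicate 2, so the groups overlapped, and the ratio was 3.35 with a 95% counting interval of 1.02 to 14.3. *Top2a*, the topoisomerase that untangles sister chromatids, had 1, 3 and 0 tags in EGFP- and 2, 5 and 2 tags in EGFP+ libraries. *Mcm2*, *Cenpf* and *Mki67* were the 3 untested members whose counting interval left out 1, each with more tags in EGFP+ libraries, and with the filter removed none of them was called (adjusted p = 0.361, 0.209 and 0.373 by the edgeR quasi-likelihood test under Benjamini-Hochberg adjustment). Counting intervals leave out the spread between libraries and were not adjusted for the number of members. In all, 16 untested members had a ratio above 1 and 13 below 1, and together they held 169 tags in EGFP- and 192 tags in EGFP+ libraries. Neither the members past the interval nor these signs were set beside a share over all genes, so they do not set the members apart.

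Other genes of the same processes, listed by function, were counted in the same way, and their counts stand beside shares of 3.44% higher and 6.37% lower over all tested genes. Of 45 other S-phase genes 19 were tested, with 1 higher and 1 lower and a median log2 fold change of -0.0034. The higher gene was *Dut*, the dUTPase that keeps uracil out of DNA, with 6, 8 and 10 tags in EGFP- and 20, 16 and 13 tags in EGFP+ libraries (log2 fold change 1.19, SE 0.394). The groups did not overlap, but its adjusted p of 0.0487 by the edgeR quasi-likelihood test under Benjamini-Hochberg adjustment lies at the threshold, and the call was lost in 5 of the 6 fits without 1 library, with values from 0.98 without EGFP+ replicate 1 to 1.30 without EGFP- replicate 3, and held without EGFP+ replicate 3. It was also lost with library-size or iterative TMM scaling and with DESeq2. The lower gene was *Pola1*, the catalytic subunit of the polymerase that starts each new strand with primase, with 13, 13 and 31 tags in EGFP- and 4, 6 and 8 tags in EGFP+ libraries (-1.47, SE 0.445). It passed the filter only through the EGFP- libraries, and it stayed called with the filter removed. EGFP- replicate 3 was again the highest library, and the call was lost without it (-1.02), without EGFP+ replicate 1 (-1.28) and without EGFP+ replicate 2 (-1.47), and with DESeq2. The genes with the most tags were the histone chaperone *Nasp* (log2 fold change -0.0034), the histone mRNA binding protein *Slbp* (0.04) and the clamp loader *Rfc1* (0.28), none of them called. The list summed to 552 ± 19.5 normalized CPM in EGFP- and 561 ± 1.50 in EGFP+ libraries (SD, n = 3).

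Of 66 symbols of other mitosis genes 15 were tested, with 1 higher, 0 lower and a median of -0.0080 by edgeR's quasi-likelihood test. Over all tested genes 3.44% were higher and 6.37% lower. *Cenpl*, of the inner kinetochore, had 7, 4 and 7 tags in EGFP- and 17, 11 and 16 tags in EGFP+ libraries. It passed the filter only through the EGFP+ libraries, and it stayed called with the filter removed. The groups did not overlap, the log2 fold change was 1.43 (SE 0.426) and the adjusted p was 0.0273 by the edgeR quasi-likelihood test under Benjamini-Hochberg adjustment. The call was lost without any of the EGFP- libraries (1.60, 1.25 and 1.48 without replicates 1, 2 and 3) and without EGFP+ replicate 1 (1.28) or 3 (1.41), and with DESeq2. The genes with the most tags were *Ube2s*, which extends ubiquitin chains for the anaphase-promoting complex (log2 fold change 0.40), the kinetochore protein *Zwint* (0.42) and the histone variant *H2afz* (-0.09), none of them called. *Ncaph*, a condensin subunit named after its values were seen, had 0, 0 and 0 tags in EGFP- and 5, 2 and 3 tags in EGFP+ libraries. It did not pass the filter, and with the filter removed it was called higher (adjusted p = 0.031 by the edgeR quasi-likelihood test under Benjamini-Hochberg adjustment). The list summed to 727 ± 46.2 and 792 ± 32.1 normalized CPM (SD, n = 3).

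The members are switched on by E2F factors in S phase and by the MuvB complex with B-Myb and FoxM1 later, and kept off by the pocket proteins in resting cells. A list of 20 genes held such regulators and *Myc*, and 12 of the 20 were tested, with 1 higher and 2 lower, beside 3.44% higher and 6.37% lower over all tested genes. *E2f4*, the E2F factor that works mainly with pocket proteins, had 21, 18 and 24 tags in EGFP- and 32, 33 and 69 tags in EGFP+ libraries. The groups did not overlap (log2 fold change 1.23, SE 0.301, adjusted p = 0.0078 by the edgeR quasi-likelihood test under Benjamini-Hochberg adjustment), and without EGFP+ replicate 3, the highest library, the value was 0.83 and was not called. *Rbl2*, the pocket protein of resting cells, had 54, 35 and 35 tags in EGFP- and 21, 9 and 20 tags in EGFP+ libraries. It was lower in every EGFP+ library (-1.15, SE 0.332), and the call was lost without EGFP- replicate 1 (-0.87) or EGFP+ replicate 2 (-0.86). *Myc* had 114, 83 and 120 tags in EGFP- and 47, 46 and 43 tags in EGFP+ libraries. The groups were far apart (-1.06, SE 0.198), but the value lies close to the fold threshold and fell under it without EGFP- replicate 1 (-0.95) or EGFP+ replicate 3 (-0.98). *Tfdp1*, the dimer partner of the E2F factors, was not called (0.07, SE 0.285). The median of the regulators was 0.012.

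A further list held the D- and G-type cyclins, the kinases Cdk4 and Cdk6, the CDK inhibitors and growth-arrest genes. Of its 16 genes 15 were tested, with 0 higher and 5 lower by edgeR's quasi-likelihood test and a median of -0.26, beside 3.44% higher and 6.37% lower over all tested genes, and the replicate block added 1 lower gene. The lists were not tested against each other or against all genes. *Cdkn1a*, a CDK inhibitor induced by p53 and by mitogens, had 601, 542 and 588 tags in EGFP- and 196, 194 and 259 tags in EGFP+ libraries. Its log2 fold change was -1.26 (SE 0.167, adjusted p = 2.71e-05 by the edgeR quasi-likelihood test under Benjamini-Hochberg adjustment). *Btg2*, an antiproliferative early-response gene, had 1669, 1973 and 1738 tags in EGFP- and 539, 706 and 801 tags in EGFP+ libraries (-1.25, SE 0.178). *Gas1*, a growth-arrest gene of fibroblasts, had 122, 121 and 147 tags in EGFP- and 39, 36 and 57 tags in EGFP+ libraries (-1.40, SE 0.193). For these 3 genes the groups were far apart, and the call held without any 1 library. *Cdkn1c*, a CDK inhibitor of the same family as *Cdkn1a*, had 60, 71 and 44 tags in EGFP- and 21, 17 and 31 tags in EGFP+ libraries (-1.20, SE 0.283). *Ccnd1*, the cyclin that couples growth factors to the cell cycle, had 15, 27 and 18 tags in EGFP- and 2, 6 and 6 tags in EGFP+ libraries (-1.92, SE 0.458), and passed the filter only through the EGFP- libraries but stayed called with the filter removed. Neither gene overlapped between the groups, and both lost the call without EGFP- replicate 2 (-0.995 for *Cdkn1c* and -1.60 for *Ccnd1*). *Btg1*, related to *Btg2*, had nearly the same tags in both groups (0.15, SE 0.162). *Cdkn2d*, named after its values were seen, had 21, 29 and 14 tags in EGFP- and 12, 7 and 7 tags in EGFP+ libraries, and the edgeR quasi-likelihood test under Benjamini-Hochberg adjustment gave an adjusted p of 0.0738 on the group alone (-1.14, SE 0.414) and 0.0375 once the replicate block was added (-1.12, SE 0.40). The lower genes thus held inhibitors of the cycle and 1 cyclin that promotes entry into it, *Ccnd1*.

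**Figure D3:**
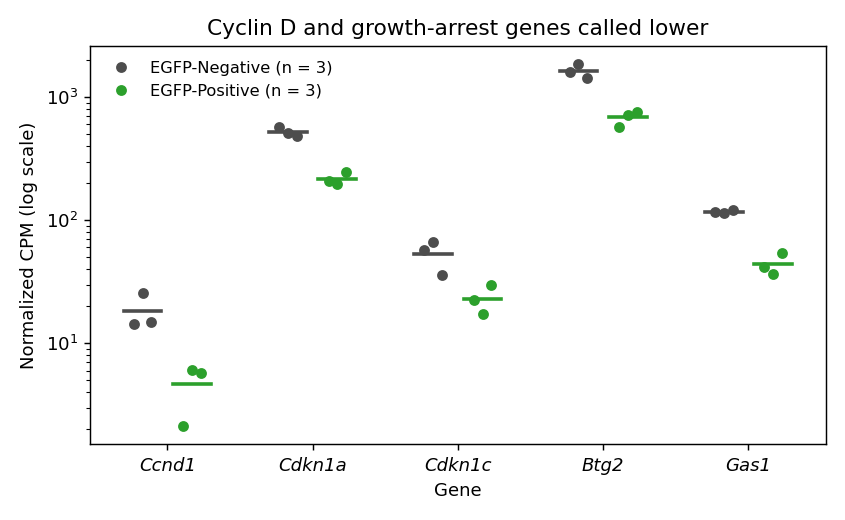
Normalized CPM (log scale) of the 5 D-type cyclin and growth-arrest genes called lower, in each EGFP- (grey) and EGFP+ (green) library, with a line at the group mean (n = 3). Every EGFP+ library lies below every EGFP- library for all 5 genes, with log2 fold changes from -1.92 (*Ccnd1*) to -1.20 (*Cdkn1c*).

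The groups also differed in markers of other stromal cells. All 8 pericyte and smooth muscle markers were tested and called lower, beside 6.37% of all tested genes. *Notch3* and *Cnn1* among them passed the filter only through the EGFP- libraries, and all 8 stayed called with the filter removed. The 8 markers summed to 4210, 4408 and 5675 tags in EGFP- and 271, 309 and 505 tags in EGFP+ libraries, led by *Rgs5*. All 10 fibroblast markers were tested and 2 of them called higher, beside 3.44% of all tested genes. They summed to 26021, 26501 and 33387 tags in EGFP- and 40926, 34984 and 33463 tags in EGFP+ libraries, led by *Dcn*. Without overlap, 5 fibroblast markers were higher and 2 lower, beside 14.5% and 16.7% of all tested genes. Not all of them went the same way, since *Dpt* (log2 fold change -0.96) and *Lum* (-0.64), both named after their values were seen, were lower in every EGFP+ library without reaching a 2-fold difference. Fibroblast markers were thus high in both groups, and pericyte and smooth muscle markers mainly in the EGFP- group. The 3 glia markers analysed summed to 27, 35 and 35 against 1, 0 and 1 tags, led by *Gfap*, with *Sox10* and *S100b* at 0 in all EGFP+ libraries. The 2 markers of interstitial cells of Cajal summed to 215, 127 and 265 against 1, 0 and 22 tags, led by *Ano1*. The 3 mesothelial markers summed to 4, 0 and 13 against 0, 0 and 0 tags, led by *Upk3b*. All 4 of these non-fibroblast lists held fewer tags in EGFP+ libraries, as *Rrm1* did, and their part in the result was not tested.

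Markers of the cell types that the gate removes were summed in the same way. The 6 endothelial markers analysed summed to 43, 68 and 62 tags in EGFP- and 1, 3 and 9 tags in EGFP+ libraries, led by *Esam*, while *Pecam1* (CD31) was at 0 in all libraries but EGFP- replicate 2, with 1 tag. The 12 immune markers summed to 28, 64 and 49 against 35, 16 and 27 tags, led by *Cd74*, with *Ptprc* (CD45) at 1, 2 and 7 against 0, 3 and 0 tags. Not all of them were lower, since *S100a8*, named after its values were seen, was at 2, 4 and 2 against 13, 1 and 12 tags. The 9 epithelial markers analysed summed to 34, 28 and 62 against 11, 16 and 27 tags, led by *Lgals4* (29, 25 and 40 against 7, 10 and 18 tags). Each of the others had at most 8 tags in any library, with *Epcam* at 1, 0 and 0 against 0, 0 and 1 tags. With the filter removed, 6 of the 9 had a positive log2 fold change and 3 a negative one. The defining markers of these 3 cell types thus had at most 7 tags in any library. The 5 erythroid markers analysed summed to 95, 0 and 372 tags in EGFP- and 17, 2 and 20 tags in EGFP+ libraries, led by *Hbb-bs*, with *Alas2* at 0 in all libraries but EGFP- replicate 3. EGFP- replicate 3, the highest in erythroid tags, was also the highest library for *Rrm1* and *Mcm6*, whereas EGFP- replicate 2, with 0 erythroid tags, had the next highest *Rrm1* and *Mcm6* values. The part of these markers in the result was not tested.

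As the members are thought to share control through their promoters, the RefSeq promoter table (GRCm38.p6) was searched, which matched 33 of the 38 members. For each gene the 250 bases upstream of its first listed start were searched on both strands, and further starts were left out. The letters searched were TTTNNCGC for E2F, TTTGAA or TTCGAA for the cell cycle homology region (CHR) bound by MuvB, and CCAAT for NF-Y. Of 16 S-phase members 5 (31.2%) held the E2F letters, beside 4.39% of 27025 genes in the table and 1 of 17 mitosis members (5.88%). The CHR letters were in 8 of 17 mitosis members (47.1%), in 3 of 16 S-phase members (18.8%) and in 17.4% of all genes. CCAAT was in 16 of 17 mitosis members (94.1%), in 9 of 16 S-phase members (56.2%) and in 34.5% of all genes. Both CHR and CCAAT letters were in 8 of 17 mitosis members (47.1%), in 2 of 16 S-phase members (12.5%) and in 6.21% of all genes. These shares describe letters in a window and not binding.

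The upstream sequences of 4 members are given, 5′ to 3′ on the strand of the gene, with matches to the searched letters or their reverse complement in capitals. *Rrm1* (chr7:102441445-102441694, plus strand) is shown as the member that was called. *Mcm6* (chr1:128359706-128359955, minus strand) is shown for the most E2F matches among the tested members found in the promoter table, which did not match *Mcm4*. *Ccnb2* (chr9:70421555-70421804, minus strand) and *Mki67* (chr7:135716380-135716629, minus strand) are shown as mitosis members that hold both CHR and CCAAT letters.
*Rrm1*: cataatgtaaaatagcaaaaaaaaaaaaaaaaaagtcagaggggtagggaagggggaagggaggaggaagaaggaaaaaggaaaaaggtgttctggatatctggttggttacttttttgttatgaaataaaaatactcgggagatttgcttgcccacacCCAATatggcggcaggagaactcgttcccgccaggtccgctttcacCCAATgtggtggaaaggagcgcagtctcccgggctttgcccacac
*Mcm6*: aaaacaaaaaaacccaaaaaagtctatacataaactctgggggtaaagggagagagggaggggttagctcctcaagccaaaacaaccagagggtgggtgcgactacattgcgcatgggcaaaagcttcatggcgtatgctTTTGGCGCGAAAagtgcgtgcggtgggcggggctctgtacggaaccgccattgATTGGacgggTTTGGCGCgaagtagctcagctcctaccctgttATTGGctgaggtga
*Ccnb2*: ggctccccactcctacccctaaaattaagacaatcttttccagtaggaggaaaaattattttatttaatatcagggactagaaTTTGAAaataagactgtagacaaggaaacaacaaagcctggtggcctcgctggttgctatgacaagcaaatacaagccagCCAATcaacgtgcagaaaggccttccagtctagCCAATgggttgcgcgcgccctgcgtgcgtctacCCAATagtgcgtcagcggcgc
*Mki67*: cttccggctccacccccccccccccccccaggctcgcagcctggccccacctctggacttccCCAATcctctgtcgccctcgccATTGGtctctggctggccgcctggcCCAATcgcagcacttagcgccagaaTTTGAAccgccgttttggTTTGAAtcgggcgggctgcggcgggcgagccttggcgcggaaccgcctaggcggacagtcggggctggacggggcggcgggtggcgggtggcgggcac
The *Rrm1* window holds 2 CCAAT matches and 0 E2F or CHR matches. *Mcm6* holds 3 E2F matches, of which a pair overlaps, and 2 CCAAT matches. *Ccnb2* holds 1 CHR and 3 CCAAT matches, and *Mki67* holds 2 CHR and 3 CCAAT matches. No match says only that these letters are not in the window.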

How the data were processed

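The values are tag counts per gene symbol, deposited by the authors without normalization for each of the 6 libraries. According to the submitters' processing notes and the study's methods, reads were trimmed with Cutadapt 1.18, mapped to RefSeq mm10 RNA in 1 orientation with Bowtie2 2.2.5 and compared in R 3.5.1. How tags that map to several genes were treated is not given in the sources used here. Low genes therefore carry counting error of a few tags, and 5′ tags of near-identical copies can be shared.

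Genes that held 10 or more tags in 3 or more of the 6 libraries were compared in R 4.3.3 with edgeR 4.0.16 (TMM scaling, quasi-likelihood test, Benjamini-Hochberg adjustment over all 9334 tested genes) on the group alone, and called past a 2-fold difference with an adjusted p under 0.05. The procedure was tested on simulated data, in which genes were changed only above a tag level that most members do not reach. That test therefore does not cover those members. Members and lists were chosen with earlier results of these data known, so no list was tested as a whole. The text names all members analysed, the called genes (up to 6) and the 3 genes with the most tags of each other list, the leading gene and absent defining markers of each cell type, and *Il11*. Of the 40 members, 2 were not analysed here, and some cell type markers are not reported here.

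Replicate numbers 1 to 3 occur in both groups, and the methods name 3 mice without saying which libraries share an animal, so p-values measure only the spread between these libraries, which may be technical. Over 5064 genes, deviations from the group means correlated between same-numbered libraries with r of 0.23, 0.21 and 0.27, and the numbers were taken as pairs from the data (genes are not independent replicates). Alternatives were RLE or library-size scaling, iterative TMM with the quasi-likelihood or exact test, DESeq2 1.42.0, no filter, filterByExpr, the replicate block, no fold threshold and each library left out. Positions and 50-nt windows of the 5′ 300 nt of transcripts come from GENCODE mouse release 21 (GRCm38).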

Additional observations from a re-analysis of the deposited data

How the results depend on the processing

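No alternative called a member higher, and 9 members were tested under each filter but 38 without one. The number of members called lower was 1 under each scaling, filter and exact-test alternative, 0 with DESeq2 and 0 to 1 with single libraries left out. The log2 fold change of *Rrm1* was -1.30 with DESeq2 (adjusted p = 0.0634, while the edgeR quasi-likelihood test under Benjamini-Hochberg adjustment gave 0.0267) and -1.62 to -0.98 with single libraries left out. With the replicate block, *Rrm1* stayed called (-1.27, adjusted p = 0.00927 by the edgeR quasi-likelihood test under Benjamini-Hochberg adjustment), *Mcm6* (adjusted p = 0.0703) and *Pcna* (0.138) did not pass, and *Cdkn2d* was the only named gene whose call the pairing changed. In the other cell-cycle lists, with 61 genes tested, the number called higher was 3, and it was 2 with library-size scaling or iterative TMM, 1 with DESeq2, 1 to 2 without 1 library and 4 with no filter, which added *Ncaph*. The number called lower was 8, and it was 7 with DESeq2, 9 with the replicate block and 6 to 9 without 1 library, beside 3.44% higher and 6.37% lower over all tested genes. Over all genes, 638 were higher and 812 lower by the adjusted p alone, against 321 and 595 with the fold threshold. The summed ratio was 0.852 for all members and 0.832 for the S-phase members when scaled by library size only. Without *Pcna*, which held 47.0% of the member tags, it was 0.999 and 0.975. The mitosis ratio of 1.12 ranged from 0.949 to 1.33 without 1 library and was 0.979 without *Cenpf*. Signs turned for *Mcm4* without EGFP+ replicate 1 (0.0022, with -0.68 as the lowest value without a library). They also turned for *Mcm7* without EGFP- replicate 1 (0.18) or EGFP+ replicate 3 (0.12, lowest -0.33). With all libraries the values were -0.29 (SE 0.358) for *Mcm4* and -0.09 (SE 0.391) for *Mcm7*. The cause of a change was not tested. Within replicate numbers 1, 2 and 3, the ratio of the S-phase sums was 0.850, 0.970 and 0.818 and that of the mitosis sums 1.175, 0.752 and 1.79. Of the single-gene values other than those of *Rrm1*, 238 kept their direction and side of the threshold and 25 lost a call. At 1022851 to 1169817 tags per library, 29 of 38 members stayed under the filter, and for them a change of several-fold could go unseen.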
